A study of Mus musculus with 4 samples.

Results

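The genes described here are 47 genes of mitosis and the spindle, listed by symbol, and all of their probe sets were taken from the deposited table. The platform annotation gave 44 of the 47 a probe set of their own, 82 probe sets in all, out of 12393 genes and 22626 probe sets. Ccnb1, Espl1 and Cdca8 were named by no such probe set and were not analysed here. The list was drawn up by function and not by measured values, but with earlier results of these data known.

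The study measured RNA in R1 cells, an established mouse embryonic stem (ES) cell line, on 4 Affymetrix arrays. On 2 arrays the cells had taken up a lentivirus with a short hairpin RNA (shRNA) to Brg1, a motor subunit of SWI/SNF remodellers that moves nucleosomes (knockdown replicates 1 and 2). The cells of the other 2 arrays received an shRNA against GLUT4, a glucose transporter, as the control (control replicates 1 and 2). All groups therefore carried a lentivirus and an shRNA, and all were harvested 67 h after infection. The series' design text says that infections were made in duplicate. Nothing says that the cells came from separate cultures, so p-values measure the spread between these arrays, which may be technical. The labels give no untreated cells and do not say how many hairpins were used per target.

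Each array had the same trimmed mean signal (200.1), and levels below are in those array units. Smarca4, which encodes Brg1, gave 637 ± 21.6 signal units in the knockdown against 1200 ± 19.1 in the control (SD, n = 2 each), a log2 difference of -0.89 (limma, adjusted p = 0.000232), so the loss of its RNA was partial. Slc2a4, which encodes GLUT4, was too dim to test, at 22.4 ± 2.12 against 15.4 ± 5.30 (SD, n = 2 each). All 8 ES cell marker genes were bright on all arrays, between 534 and 5645 signal units. Of these pluripotency markers 2 rose, Nanog by 0.87 and Esrrb by 0.38 in log2 units (adjusted p = 0.000299 and 0.0160 by limma), and 6 did not pass; their part in the results below was not tested. Of 10 fibroblast markers, which would mark feeder cells, 1 passed the brightness filter of 23.9 signal units, and their summed signal was 130 and 152 in the knockdown against 122 and 135 in the control. Differences below are of log2(signal + 20), knockdown minus control. Their p-values come from limma and are adjusted over all 7815 genes tested, or over all 13576 probe sets tested where a probe set is named, and "rose" and "fell" mean an adjusted p under 0.05.

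Entry into mitosis is driven by the kinase Cdk1 with cyclins A and B, which the Cdc25 phosphatases activate. Polo and Aurora kinases then build the spindle, condensin and topoisomerase II shape the chromosomes, and the spindle checkpoint holds the anaphase-promoting complex (APC/C) in check until every kinetochore is attached. Much of this machinery is transcribed in G2 phase under the MuvB complex, B-Myb and Foxm1. ES cells cycle fast, with short gap phases, and express these genes strongly. The arrays read RNA of whole cultures, in which fewer cells in mitosis and less RNA per cell cannot be told apart.

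Most of the mitotic programme differed little between knockdown and control. Of the 43 genes bright enough to test, 1 rose (Ccnf), 4 fell (Top2a, Birc5, Nusap1 and Kif22) and 38 did not pass the test. That is 11.6% of the tested genes, beside 14.4% of all genes tested. An unadjusted p under 0.05 by limma was reached by 10 of the 43 (23.3%), where 31.3% of all genes reached it. The falls were 4 of 43 where 5.09% of all genes fell, and the rise was 1 of 43 where 9.33% of all genes rose. The differences ran from -0.35 to 0.32, and 28 lay below 0 and 15 above. Their median was -0.05, beside 0.04 for all genes tested, and the median size regardless of sign was 0.13 beside 0.18. Both knockdown arrays lay outside the range of the control arrays in 22 of the 43, a share of 51.2% where all genes gave 60.2%. They lay below in 15 and above in 7, where 25.9% and 34.3% of all genes did. By the probe set used per gene, the 95% interval of the difference lay within 0.5 of 0 on the log2 scale for 38 of the 43. A change beyond that size was thus outside the interval for most of them on the deposited scale. All genes tested gave 57.9% by the same measure, but their median SE was larger (0.12 against 0.09). The further mitosis genes described below gave 82.1% and a median size of 0.13. The DNA replication genes gave 78.3% and 0.11. Narrow intervals and small sizes were thus not particular to these 43 genes. Other probe sets could differ: 1439436_x_at of Incenp had an interval from -0.68 to -0.29. Without control replicate 1, 22 of the 43 lay below 0 and 21 above, while 27 to 30 lay below without any other array. Directions and intervals also hold only on the deposited scale. With the arrays scaled to their hybridisation spike-ins, the median of all genes moved from 0.04 to 0.33, and 41 of the 43 lay above 0 (not Aurkb and Kif22). Ccnf (0.65), Cdc25b (0.60) and Cenpf (0.56) were the 3 called, all higher. Over all genes the 729 rises and 398 falls became 1413 and 30 with that scaling, and 622 and 598 with each array centred on its median.

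**Figure D1:**
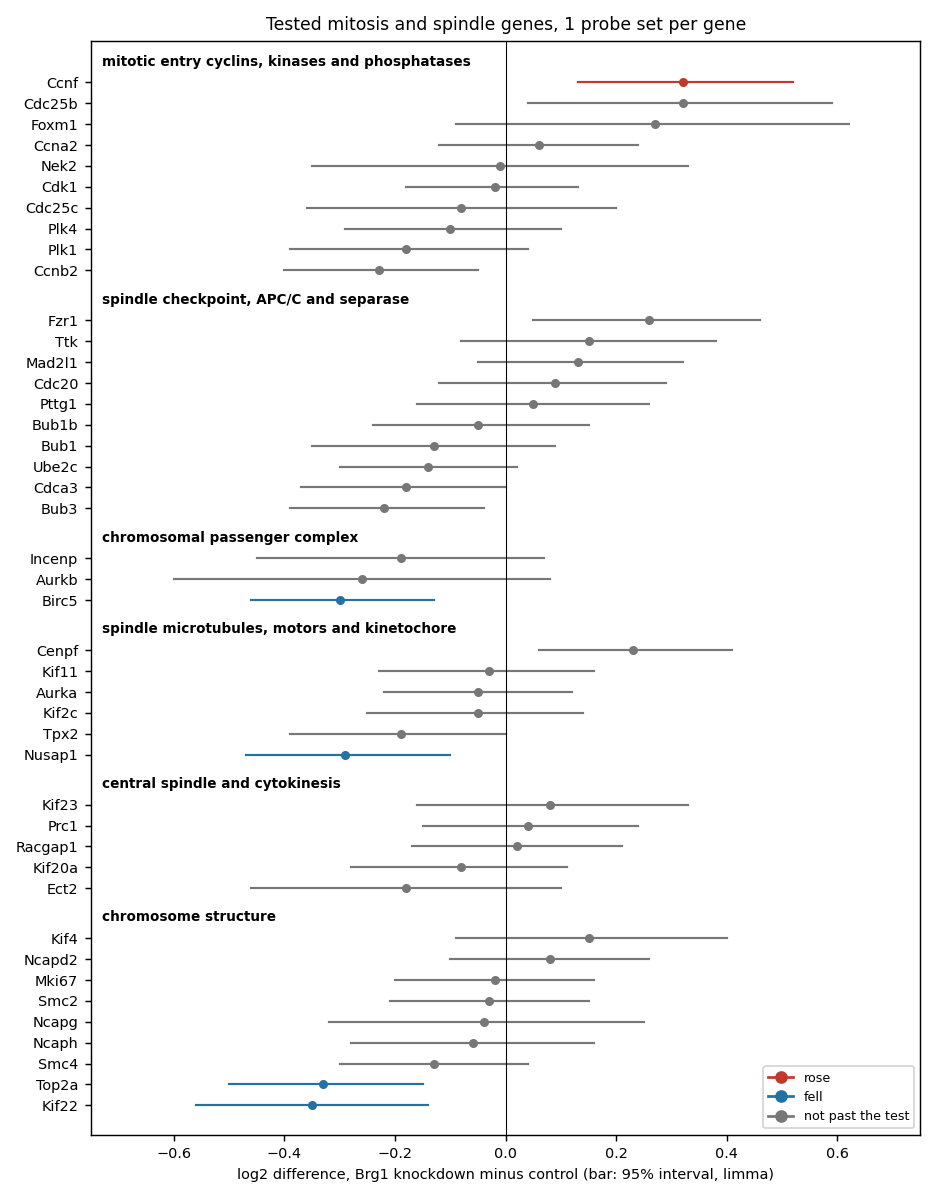
Log2 difference (knockdown minus control, x axis) of the 43 tested genes, grouped by role, with points for the estimate and bars for the 95% interval from limma. Ccnf (0.32) is the only gene drawn as a rise, and Birc5, Nusap1, Top2a and Kif22 (-0.29 to -0.35) are drawn as falls.

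The largest falls were in genes that shape or move chromosomes. Top2a, the topoisomerase that untangles sister chromatids, gave 1940.0 and 1830.2 signal units in the knockdown against 2493 and 2248 in the control. All of its knockdown values were under its control values, and the log2 difference of -0.33 ± 0.08 (SE) passed limma as a fall (adjusted p = 0.0229), or 1.25-fold. Kif22, a kinesin that pushes chromosome arms along microtubules, gave 435 and 387 against 535 and 521. It fell by 0.35 ± 0.09 (limma, adjusted p = 0.0386), the largest difference of the tested members by the probe set used per gene.

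Birc5 (survivin) is the subunit that brings the chromosomal passenger complex to the centromere. Its signal was 1249.9 and 1181 in the knockdown against 1493 and 1506 in the control, with no overlap between the groups. It fell by 0.30 ± 0.07 (SE; limma, adjusted p = 0.0273). Nusap1, which bundles spindle microtubules near chromosomes, gave 774 and 749 against 978 and 889.6. The groups were again apart, and it fell by 0.29 ± 0.08 (limma, adjusted p = 0.0493), just under the threshold.

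Ccnf, cyclin F, is the substrate receptor of an SCF ubiquitin ligase and does not activate Cdk1. Its signal was 1059 and 1182 in the knockdown against 859.5 and 924 in the control. Both knockdown arrays were higher than both controls, and it rose by 0.32 ± 0.09 (SE; limma, adjusted p = 0.0366), or 1.25-fold.

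None of these 5 calls held in every setting. Without knockdown replicate 2 the test called 0 of the 43 (limma; 6 had an unadjusted p under 0.05), and without control replicate 1 it also called 0 (7 unadjusted). Without control replicate 2 it called Ccnf, Nusap1 and Top2a, and without knockdown replicate 1 it called all but Nusap1. With the mean of all probe sets of a gene, Top2a (-0.16) and Nusap1 (-0.09), which each have a second, dim probe set, were not called, while Kif22 (-0.53) and Smc4 (-0.33, adjusted p = 0.0455) were. The log2 differences themselves moved less: without knockdown replicate 2 Top2a was at -0.28, Birc5 at -0.26, Nusap1 at -0.26, Kif22 at -0.27 and Ccnf at 0.24. With the replicate number as a block in the model the other 4 kept their calls and Nusap1 lost its own (adjusted p = 0.0576).

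**Figure D2:**
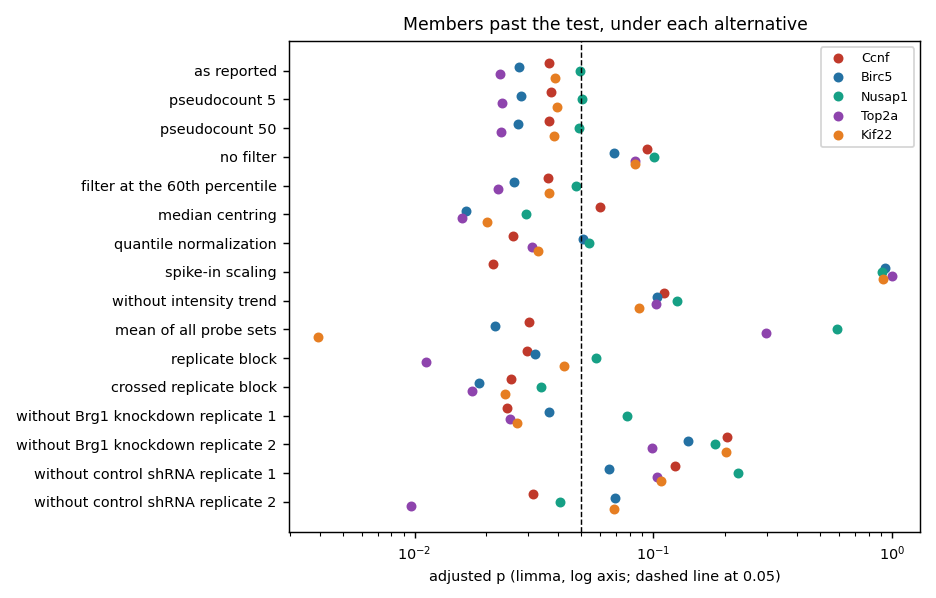
Adjusted p from limma (x axis, log scale) of the 5 genes that passed the test, as reported and under each alternative (y axis), with a dashed line at 0.05. All 5 points lie to the right of the line without the filter, without the intensity trend, and with either knockdown replicate 2 or control replicate 1 left out.

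The promoters of these 5 genes are shown because mitotic genes are known for a pair of promoter elements, the cell cycle genes homology region (CHR), bound by MuvB complexes, and the CCAAT box, bound by NF-Y. Each line gives the 250 bases before the gene's start from RefSeq (build GRCm38.p6), 5′ to 3′ on the gene's strand. Capitals mark TTTGAA or TTCGAA (CHR letters) and CCAAT, searched on both strands, so that TTCAAA and ATTGG are the same letters on the other strand. TTCGAA reads the same on both.
Top2a (chr11:99024190-99024439, minus strand): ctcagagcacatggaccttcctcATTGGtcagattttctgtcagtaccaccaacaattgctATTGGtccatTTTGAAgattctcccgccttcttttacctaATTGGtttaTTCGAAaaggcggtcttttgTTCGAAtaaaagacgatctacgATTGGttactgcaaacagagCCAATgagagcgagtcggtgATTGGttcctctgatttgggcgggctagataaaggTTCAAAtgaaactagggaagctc
Kif22 (chr7:127042421-127042670, minus strand): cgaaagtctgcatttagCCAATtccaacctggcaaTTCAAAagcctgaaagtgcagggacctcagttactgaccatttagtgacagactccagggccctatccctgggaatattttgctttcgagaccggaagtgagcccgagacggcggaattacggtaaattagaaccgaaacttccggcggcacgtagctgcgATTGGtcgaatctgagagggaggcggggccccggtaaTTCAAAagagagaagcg
Ccnf (chr17:24251410-24251659, minus strand): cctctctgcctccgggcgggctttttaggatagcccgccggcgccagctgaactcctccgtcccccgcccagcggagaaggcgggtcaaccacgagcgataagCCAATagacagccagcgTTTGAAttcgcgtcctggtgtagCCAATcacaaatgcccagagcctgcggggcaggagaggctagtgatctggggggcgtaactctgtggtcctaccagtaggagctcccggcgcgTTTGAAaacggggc
Birc5 (chr11:117848987-117849236, plus strand): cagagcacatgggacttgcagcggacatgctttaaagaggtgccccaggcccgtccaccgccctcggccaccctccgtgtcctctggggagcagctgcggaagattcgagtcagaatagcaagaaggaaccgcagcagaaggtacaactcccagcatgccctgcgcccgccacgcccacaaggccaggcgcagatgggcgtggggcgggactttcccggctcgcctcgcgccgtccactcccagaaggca
Nusap1 (chr2:119618048-119618297, plus strand): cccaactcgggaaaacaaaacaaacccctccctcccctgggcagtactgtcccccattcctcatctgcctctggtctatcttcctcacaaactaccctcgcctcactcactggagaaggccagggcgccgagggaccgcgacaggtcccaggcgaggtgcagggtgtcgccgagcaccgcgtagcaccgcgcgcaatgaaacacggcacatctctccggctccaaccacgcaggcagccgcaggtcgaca

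Top2a held 4 matches to the CHR letters and 6 to CCAAT in this window, and Kif22 and Ccnf held 2 of each. The match closest to the start began 23 bases before it in Top2a, 17 in Kif22 and 14 in Ccnf, and in all of these it was a CHR match. Birc5 and Nusap1 held neither set of letters in these windows. Of the 39 listed genes with a promoter in the table, 18 (46.2%) held CHR letters, 32 (82.1%) held CCAAT and 17 (43.6%) held both. Over the 6387 tested genes with a window the shares were 13.9%, 41.1% and 5.4%, and over all 27025 genes they were 19.6%, 37.5% and 7.0%. Of 40 DNA replication genes with a window, 8, 23 and 5 held them. Of the called genes, the 3 that held both sets of letters moved in both directions, Top2a and Kif22 down and Ccnf up. A match describes letters and is not evidence of binding.

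**Figure D3:**
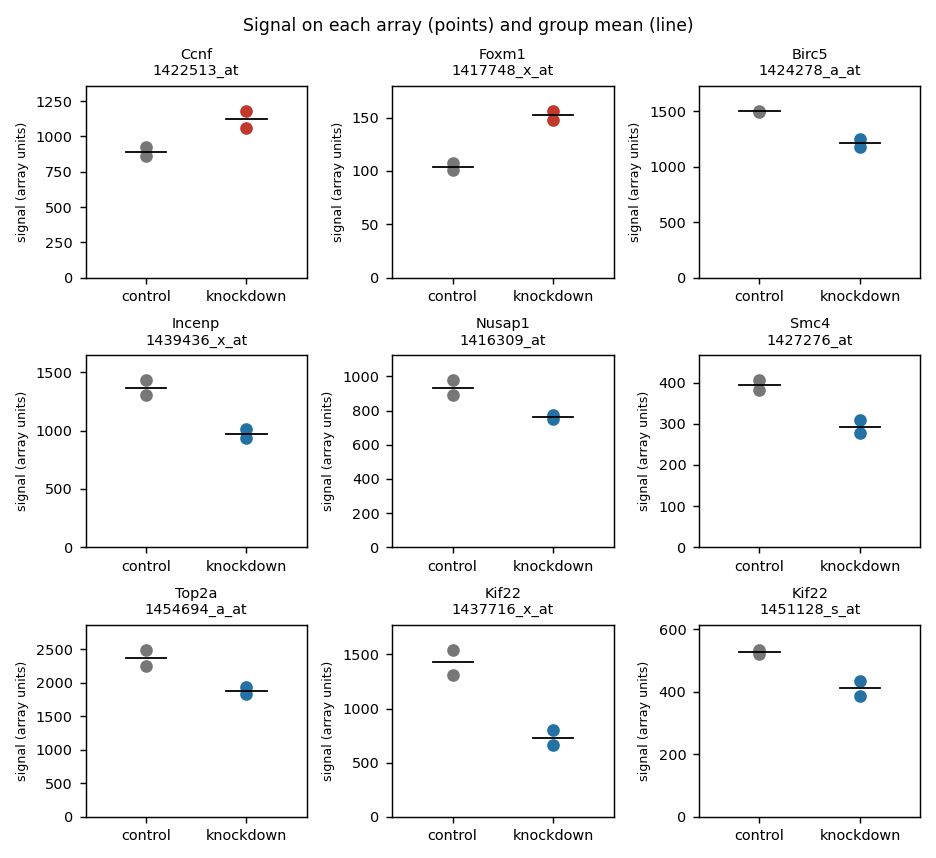
Signal on each array (y axis, array units, from 0) of the 9 probe sets behind the genes past either test, with grey points for the 2 control arrays, coloured points for the 2 knockdown arrays and a line for each group mean. The panels were chosen by the test, which favours groups that lie apart, and the groups do not overlap in any of the 9. Over all probe sets tested, 58.4% did not overlap. The probe set 1437716_x_at of Kif22 shows the widest gap (730 against 1426 signal units).

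Among the genes of mitotic entry, 10 of 11 were tested, and Ccnf was the 1 that passed (10.0%, beside 14.4% of all genes). The measured part of the core engine showed no called change, and Ccnb1, a B-type cyclin, had no probe set of its own. Cdk1, the mitotic kinase, gave 1608 and 1666 signal units in the knockdown against 1659 and 1668 in the control, and its difference was -0.02 (95% interval -0.18 to 0.13). Ccna2, cyclin A, gave 1720.1 and 1939.5 against 1726 and 1772, with overlapping groups and a difference of 0.06 (-0.12 to 0.24). Ccnb2, the B-type cyclin that was measured, was lower on both knockdown arrays (792 and 811 against 917 and 965). Its difference of -0.23 ± 0.08 (SE; 95% interval -0.40 to -0.05) did not pass after adjustment (limma, adjusted p = 0.0864). It did pass with each array centred on its median (-0.28, adjusted p = 0.0467).

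Neither of the Cdc25 phosphatases, activators of Cdk1, passed the test on the deposited scale. Cdc25b, the phosphatase that starts Cdk1 activation, gave 142 and 151 signal units against 106 and 122. Both knockdown arrays were above both controls, with a difference of 0.32 ± 0.12 (SE; limma, adjusted p = 0.116). Cdc25c, its relative, gave 98.0 and 96.3 against 105 and 103, a difference of -0.08 (95% interval -0.36 to 0.20). Plk1, the polo kinase of spindle assembly, gave 924 and 768 against 953 and 955.5 (-0.18, adjusted p = 0.249), and knockdown replicate 2 was further under the controls than replicate 1. Plk4, the kinase of centriole duplication, was at -0.10 and Nek2, a kinase of centrosome separation, at -0.01.

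Foxm1, the forkhead factor that activates G2 genes, is the mitotic transcription factor of the list. The probe set used for the gene gave 163 and 199 signal units in the knockdown against 124 and 174 in the control, with overlapping groups and a difference of 0.27 ± 0.16 (SE; limma, adjusted p = 0.288). A second, 1417748_x_at, gave 148 and 156 against 101 and 107 and rose by 0.47 ± 0.12 (adjusted p = 0.0460 over probe sets). The remaining one, 1448834_at, was at 0.21 ± 0.15. All 3 tested probe sets of Foxm1 were higher in the knockdown on average, and 1 of them passed. That call was lost without any one of the 4 arrays in turn (adjusted p 0.0629 to 0.173) and with the replicate block (0.0506).

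Of the spindle checkpoint and APC/C genes, 10 were tested and 0 passed limma, while 2 had an unadjusted p under 0.05. Those were Fzr1 and Bub3. Fzr1 (Cdh1), the activator that keeps APC/C on after mitosis, gave 460 and 486 signal units against 382 and 404. All its knockdown values were above its controls, with a difference of 0.26 ± 0.09 (SE; limma, adjusted p = 0.0925). Bub3, a checkpoint protein of kinetochores, gave 1323 and 1254 against 1567 and 1439, a difference of -0.22 ± 0.08 (adjusted p = 0.0929). A dimmer tested probe set of Bub3 lay on the other side of 0, at 0.18 ± 0.13 (adjusted p = 0.393). Cdc20, the APC/C activator of anaphase, gave 2387 and 2819.5 against 2574 and 2318, which overlap. Bub1, Bub1b, Mad2l1 and Ttk, the other checkpoint genes, lay between -0.13 and 0.15. Ube2c, the ubiquitin-conjugating enzyme of APC/C, was at -0.14, Pttg1 (securin) at 0.05 and Cdca3, a gene of mitotic entry, at -0.18. On the deposited scale, the 95% interval of the probe set used was within 0.5 of 0 for all 10.

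The 3 tested members of the chromosomal passenger complex lay below 0 by the probe sets used per gene. Besides Birc5, these were Aurkb, its kinase, at -0.26 ± 0.15 and Incenp, its scaffold, at -0.19 ± 0.12 (SE; limma, adjusted p = 0.278 and 0.301). Incenp differed by probe set. The probe set used gave 469 and 378 against 457 and 511, with overlap. A brighter one, 1439436_x_at, gave 1010.6 and 937 against 1432 and 1308 and fell by 0.48 ± 0.09 (adjusted p = 0.0127 over probe sets), a call lost without control replicate 1 (0.0641), with spike-in scaling (0.584) and without the intensity trend (0.0593). The remaining one was at -0.04. For Aurkb the probe sets went both ways: 1424128_x_at gave 214 and 228 against 194 and 201, a difference of 0.15 ± 0.11, while 1451246_s_at gave 70.0 and 59.0 against 72.8 and 89.5.

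Of 6 tested genes of spindle microtubules, motors and kinetochores, Nusap1 alone passed (16.7%, beside 14.4% of all genes). Cenpf, a large kinetochore protein, gave 1034 and 1099.5 signal units against 922 and 886. Both of its knockdown arrays were higher, with a difference of 0.23 ± 0.08 (SE; limma, adjusted p = 0.0778). It passed with quantile normalization (0.27, adjusted p = 0.0496) and with spike-in scaling (0.56, 0.0493). Tpx2, which nucleates spindle microtubules and activates Aurora A, gave 570.2 and 524 against 639.9 and 617, a difference of -0.19 ± 0.09 (adjusted p = 0.167). A second probe set of Tpx2 stood at 0.18 ± 0.10. Aurka (Aurora A), Kif11, the motor that separates the poles, and Kif2c, a microtubule depolymerase, were within 0.05 of 0. Cenpe, a kinetochore motor, was between 7.5 and 16.5 signal units on all arrays, below the filter, and was not tested.

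None of the 5 genes of the central spindle and cytokinesis passed limma, where 14.4% of all genes did. Of the 5, 0 had an unadjusted p under 0.05, where 31.3% of all genes did. With 5 genes, these counts cannot show that the group changed less than others. Ect2, which activates RhoA at the cleavage furrow, was at -0.18 ± 0.13, with 401 and 313 signal units against 379 and 432. Kif20a, a kinesin of the midzone, gave 500.0 and 495 against 534 and 522, lower on both arrays but by a difference of only -0.08. Racgap1 and Kif23, the pair that forms centralspindlin, were at 0.02 and 0.08, and Prc1, which crosslinks the midzone, was at 0.04. A dim probe set of Kif23 (58.5 against 90.2 on average) gave -0.48 ± 0.18 (adjusted p = 0.123 over probe sets) and a second one of Prc1 gave -0.22 ± 0.09, and neither passed the test.

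In the group of chromosome structure, 9 genes were tested, and Top2a and Kif22 passed (22.2%, beside 14.4% of all genes). With 9 genes, that share cannot show a concentration of calls. Condensin I, the ring that compacts mitotic chromosomes, was represented by all of its listed subunits. Smc2, Ncapd2, Ncapg and Ncaph were between -0.06 and 0.08. Smc4 gave 1068 and 1080.0 against 1209 and 1148 by the probe set used, a difference of -0.13 ± 0.08 (SE; limma, adjusted p = 0.272). Its probe set 1427276_at gave 308 and 278 against 383 and 406 and fell by 0.40 ± 0.10 (adjusted p = 0.0446 over probe sets). The remaining one, 1427275_at, was at -0.45 ± 0.16 and did not pass (0.106). All 3 probe sets of Smc4 had both knockdown arrays below both controls, where 27.8% of all probe sets tested did. The 3 were read on the same arrays and do not count as separate evidence. The call of 1427276_at was lost without knockdown replicate 2 (difference -0.33), control replicate 1 (-0.44) or control replicate 2 (-0.36). It was also lost without the filter (limma, adjusted p = 0.0926), without the intensity trend (0.0862), with spike-in scaling (0.782) and at the threshold of 0.01. Mki67, the proliferation marker that coats chromosomes, gave 1166.5 and 1073 against 1173 and 1102, with overlap and a difference of -0.02 (95% interval -0.20 to 0.16). Kif4, a chromosome-bound kinesin, was at 0.15 ± 0.11.

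Kif22 was the member with the clearest difference when every probe set was tested by itself. Its probe set 1437716_x_at gave 798.5 and 661 signal units in the knockdown against 1310.0 and 1542 in the control. It fell by 0.95 ± 0.12 (SE; limma, adjusted p = 0.00268 over probe sets), with a 95% interval from -1.21 to -0.69. The other tested probe sets of Kif22 gave smaller differences of the same sign, -0.35 ± 0.10 for 1451128_s_at and -0.29 ± 0.09 for 1423813_at (adjusted p = 0.0603 and 0.0887). The call of 1437716_x_at was kept in all 15 alternatives run on it, with adjusted p between 4.29e-05 and 0.0261. By Affymetrix naming, an _x_at probe set holds probes that can bind other transcripts, and this was not resolved here.

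Over all 72 tested probe sets, 1 rose (Foxm1) and 5 fell (Kif22, Incenp, Birc5, Top2a and Smc4), where 9.13% of all probe sets tested were called, 5.76% as rises and 3.37% as falls. The knockdown arrays lay above the controls in 14 of the 72 and below in 24, where 30.6% and 27.8% of all probe sets did, 58.4% in all. Of the 6, 3 were of the _x_at kind, as were 9 of the 72. Ccnf and Nusap1, called in the fit of 1 probe set per gene, did not pass over the larger number of probe sets. Several tested probe sets were available for 20 genes. Their differences lay on the same side of 0 in 8 of the 20, against 61.5% of 3071 such genes on the array, and their median range was 0.26 against 0.21. For small differences such as these, the sign therefore often depended on the probe set. Kif22, Smc4, Incenp and Foxm1 were among the genes whose tested probe sets all lay on one side.

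**Figure D4:**
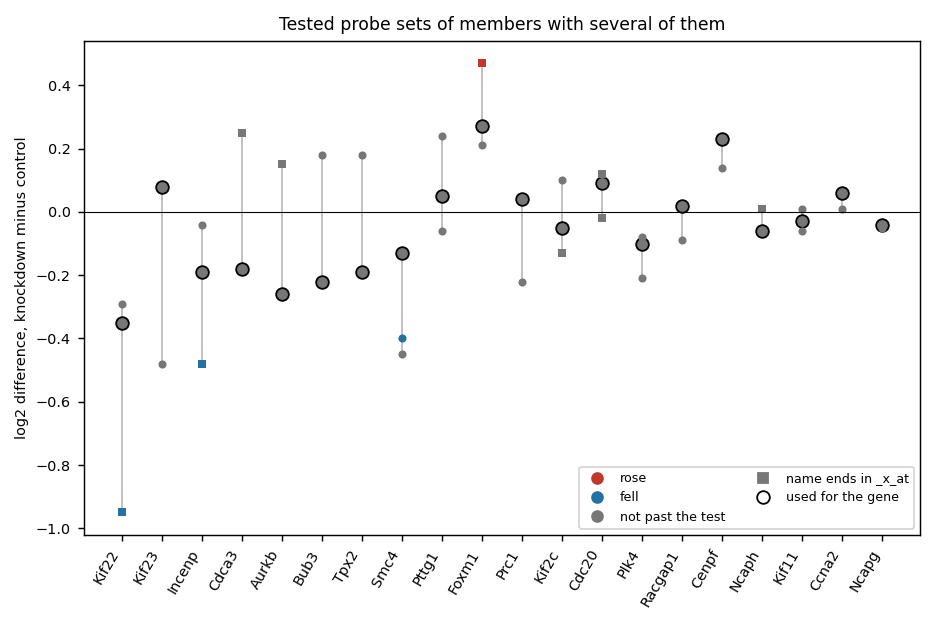
Log2 difference (y axis, knockdown minus control) of every tested probe set of the 20 genes with several, ordered by their range, with squares for names ending in _x_at and black outlines for the probe set used per gene. Kif22 has the widest range (0.66) with all points below 0, while Bub3, Tpx2 and Aurkb have points on both sides.

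Further mitosis genes, listed by function beside the 47, were also mostly near 0. Of 95 tested, 4 rose, 3 fell and 88 did not pass (7.37%, beside 14.4% of all genes), with a median of -0.04. Kinetochore and centromere genes gave 2 rises and 2 falls among 21 tested (19.0%). With spike-in scaling the further mitosis genes gave 10 rises and 0 falls. Cenpm, a subunit of the constitutive centromere network, gave 403 and 434 signal units against 147 and 131. That is a rise by 1.46 ± 0.11 (SE; limma, adjusted p = 7.02e-05), with the groups far apart and larger than any difference among the 47. Cenpt, another subunit that links centromere and microtubule-binding proteins, rose by 0.51 ± 0.08 (868 and 830.4 against 594 and 584). Cenpa, the centromeric histone, fell by 0.36 ± 0.10, and Nuf2, of the Ndc80 complex, by 0.41 ± 0.11 (adjusted p = 0.0386 and 0.0413). Tubgcp2, of the gamma-tubulin complex, rose by 0.65 ± 0.09 and Cdca5 (sororin), which protects cohesin, by 0.40 ± 0.09. Anapc15, an APC/C subunit, fell by 0.45 ± 0.11. Cenpm, Cenpt and Tubgcp2 kept their calls in all 16 alternatives. With spike-in scaling Nuf2, Cenpa and Anapc15 were no longer called, nor when knockdown replicate 2 or control replicate 2 was left out. Cenpa and Anapc15 also lost theirs without control replicate 1, and Nuf2 without knockdown replicate 1. The call of Cdca5 also ended when knockdown replicate 2 or control replicate 2 was left out. No gene of mitotic entry and cytokinesis outside the 47 passed (0 of 17 by limma, beside 14.4% of all genes). An unadjusted p under 0.05 was reached by 2 of the 17 (11.8%, beside 31.3% of all genes).

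Among 17 tested regulators of mitotic genes, 3 rose, 0 fell and 14 did not pass (17.6%, beside 14.4% of all genes), with a median of 0.10. Nfyc, a subunit of NF-Y, gave 585 and 620.3 against 409 and 416 and rose by 0.52 ± 0.09 (SE; limma, adjusted p = 0.00523). The other subunits were at -0.04 (Nfya) and -0.31 (Nfyb), neither past the test. Mybl2 (B-Myb), the partner of MuvB at CHR elements, gave 1109 and 1061 against 801 and 911 and rose by 0.34 ± 0.09 (adjusted p = 0.0323). Rbl2 (p130), the pocket protein of the repressor form, was dim, at 40.2 ± 0.354 against 18.2 ± 4.95 (SD, n = 2 each), and was called as a rise (0.0357). Both control signals lay under the filter level, so Rbl2 was tested only through the group where it was high. The size of its log2 difference depended on the pseudocount (0.66, with 0.98 at a pseudocount of 5 and 0.41 at 50). Apart from it, 2 regulators rose. Leaving out either knockdown array or control replicate 1 ended the call of Mybl2, and leaving out any one array ended that of Rbl2, while Nfyc kept it in all 16 alternatives.

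DNA replication genes, another cell cycle group, gave 3 rises and 4 falls among 46 tested (15.2%) and a median of 0.01. Pold1 and Pold2, subunits of DNA polymerase delta, both rose by 0.51, and Lig1, the replicative ligase, by 0.47. Tk1, a thymidine kinase, fell by 0.54, Gins1 by 0.50, Rpa3 by 0.41 and Gmnn (geminin) by 0.38. With spike-in scaling the list gave 6 rises and 0 falls, and none of these 4 was called (limma, adjusted p 0.455 to 0.854). Gmnn (0.0908) and Rpa3 (0.0825) were also not called when knockdown replicate 2 was dropped, nor Rpa3 when control replicate 1 was (0.0615). The difference between this list and the mitosis genes was not tested.

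**Figure D5:**
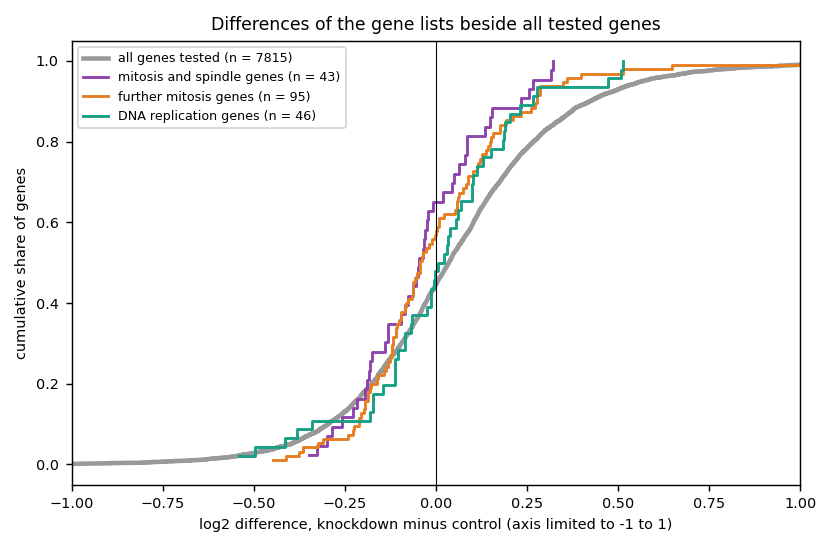
Cumulative share of genes (y axis) by log2 difference (x axis, knockdown minus control) for the 43 tested mitosis and spindle genes, the 95 further mitosis genes, the 46 DNA replication genes and all 7815 genes tested. The x axis is limited and leaves out the most extreme genes, Cenpm among them. The curve of the 43 genes, the smallest of the 4 sets, runs from -0.35 to 0.32, and its median (-0.05) lies left of that of all genes (0.04).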

How the data were processed

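The authors deposited, for every array, a linear signal intensity of each probe set, made with GCOS, the Affymetrix software, per the submitters' processing notes. For its version, algorithm and scaling nothing is stated here. Detection calls were not used. Gene symbols came from the platform annotation (20380 of 22690 probe sets with 1 gene, 691 with several, 1555 with none and 64 controls) and were updated by Entrez ID through RefSeq (GRCm38.p6; 20351 matched).

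Signals were analysed as log2(signal + 20) with no further normalization. The brightest probe set stood for each gene, an _x_at one only where there was no other, and genes under the 40th percentile (23.9 signal units) were not tested. The groups were compared by limma (3.58.1 under R 4.3.3; intensity trend, two-sided, Benjamini-Hochberg), and the model was tested on simulated data. With 2 arrays per group, their number limits the precision. The members and lists were chosen with earlier results of these data known. Named are the shRNA targets, members past a test, those of smallest p or largest difference in each role, those whose probe sets differ in sign, those without a test, and called genes of the other lists. Genes named outside this were chosen after their values were seen. Alternatives changed the pseudocount (5 or 50), the filter (none or the 60th percentile), normalization, variance model, probe set choice, threshold (0.01) and replicate block, and left out each array.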

Additional observations from a re-analysis of the deposited data

How the results depend on the processing

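The number of the 43 mitosis genes called (5) was 0 without the filter (limma; 11 at an unadjusted p under 0.05), 0 without the intensity trend (7 unadjusted), 0 at the threshold of 0.01, 3 with spike-in scaling, and 0 to 4 when 1 array was left out. Under the other alternatives it was 4 or 5. The number of their probe sets called (6) was 2 without the filter, 1 without the trend, 1 at 0.01 and 1 to 7 with 1 array left out. For the further mitosis genes (7) it was 3 without the filter, 4 without the trend, 3 at 0.01 and 3 to 10 with 1 array left out. For the regulators (3) it was 1 without the filter, 6 with spike-in scaling, 1 with the mean of all probe sets, 1 at 0.01 and 1 to 3 with 1 array left out. The replication count (7) stayed between 5 and 9. Over all genes the count of 1127 was 433 without the filter, 393 at 0.01, and 601 and 719 when knockdown replicate 2 or control replicate 1 was dropped. The members' median of -0.05 was -0.10 with median centring and 0.27 with spike-in scaling. Without control replicate 1 it was -0.01, with 21 members above 0 and 22 below. The members' median was below the median of all genes in every setting, by 0.04 to 0.12. The signs of Birc5 (0.03), Nusap1 (0.04) and Top2a (0.00) turned with spike-in scaling, with adjusted p of 0.911 to 0.999 (limma). Over the 457 values recomputed for the 29 single genes and probe sets, 124 lost a call with the sign kept. Another 5 changed sign, and these were not called either. The replicate number as a block left 4 of the 43 genes called. Over the genes tested, the difference between replicates 1 and 2 in the knockdown correlated with that in the control at -0.136. Paired crosswise, added after seeing the data, the block gave 5 of the 43, and 14 of the further mitosis genes. With 2 arrays per group, the number of arrays limits what can be called.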
